A study of Mus musculus with 21 samples.

Results

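Cartpt, Bsnd and Rxfp1 are 3 of the 64050 gene symbols counted in a mouse skin study of sclerodermatous chronic graft-versus-host disease, and they were picked because allogeneic recipients given an isotype antibody held almost no reads of them. They were selected on the read counts of the allogeneic isotype libraries beside the syngeneic ones. The choice has no numerical limit, so no genes stand just inside or just outside it. Reads were counted in 21 libraries of 5 groups. All recipients were BALB/c mice aged 8 weeks, irradiated with 700 cGy and given bone marrow. The anti-IL1RAP group (mCAN10, an antibody against the co-receptor shared by IL-1, IL-33 and IL-36, 4 libraries), the allogeneic isotype group (4 libraries), the nintedanib group (5 libraries) and the allogeneic water group (ddH2O, 4 libraries) had B10.D2 marrow. The syngeneic isotype group (4 libraries) had BALB/c marrow. The isotype antibody was mIgG2a LALA-PG. Treatment began on day 21, and the skin was collected in week 7. The antibody groups had intraperitoneal injections, at 20 mg/kg once and at 10 mg/kg afterwards. Nintedanib, a kinase inhibitor used against lung fibrosis, is given as 50 mg/kg by mouth each day in the protocol and as an intraperitoneal injection in the design text, so its route is uncertain. The libraries are labelled as separate samples and not as separate mice, and p-values therefore measure the spread between samples.

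Cartpt encodes the precursor of the CART peptides, which are neuropeptides best known from hypothalamic neurons that restrain feeding. Bsnd encodes barttin, an accessory subunit of chloride channels that is known from kidney tubules and the inner ear. Rxfp1 encodes the main receptor of relaxin, a hormone that loosens connective tissue. The receptor signals through cyclic AMP and is known for limiting collagen deposition by fibroblasts in skin and other organs. The CART precursor is cut into active peptides by the prohormone convertases Pcsk1 and Pcsk2.

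Of the 3 genes, a RefSeq promoter was at hand for Cartpt (1 of 3). It is shown because cyclic AMP response elements are known to drive this gene. The 250 bases before its start are at chr13:99900684-99900933 on the minus strand of GRCm38.p6, an older build than the GRCm39 of the counts. Capitals mark the letters TGACGTCA, whose first base lies at -112 from the start.
Cartpt promoter: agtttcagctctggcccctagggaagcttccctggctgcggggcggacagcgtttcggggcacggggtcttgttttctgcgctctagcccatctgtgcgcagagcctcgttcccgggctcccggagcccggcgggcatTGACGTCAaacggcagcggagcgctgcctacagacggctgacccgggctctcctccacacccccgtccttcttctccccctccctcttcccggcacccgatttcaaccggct
These letters occurred on either strand in 588 of 32817 RefSeq windows that run from 250 bases before to 50 after a start (1.79%). The TATA box letters TATAAA, searched likewise, had 0 matches in the Cartpt window and a match in 13.6% of all windows. The CCAAT box letters had 0 matches there and a match in 37.4% of all windows. The STAT motif TTCNNNGAA had 0 matches there and a match in 8.29% of all windows.

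Total counts ran from 17130264 to 32899212 per library. The anti-IL1RAP, allogeneic isotype and syngeneic libraries (12) were counted with other gene names than the nintedanib and water libraries (9), so groups were compared within each counting run only. All 3 genes had reads in both runs, and in GENCODE M21 no exon of theirs overlaps another gene. All 3 passed the filter on low counts that kept 20462 genes, and they passed it through the syngeneic libraries, where they are high. This filter ran over both counting runs, so the genes tested can include symbols without reads in a run. Such symbols cannot be called or separate groups in that run, so shares of all genes tested may be understated. Levels are CPM, read counts scaled to library size with TMM factors. They are not divided by gene length and are not compared between genes. The skin pieces are bulk tissue, so fewer cells of a type and less RNA per cell cannot be told apart.

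Cartpt, the neuropeptide gene, was at 0 reads in each of the 4 allogeneic isotype libraries, against 2.73, 3.05, 14.6 and 2.98 CPM in syngeneic replicates 1 to 4 (70, 71, 327 and 91 reads). The groups did not overlap, and syngeneic replicate 3 stood far above the other 3 syngeneic libraries. Measured against 3 counts over the allogeneic isotype group (0.0386 CPM), Cartpt was at least 142-fold lower there, and at least 75.6-fold lower without syngeneic replicate 3. Bsnd, the barttin gene, was likewise at 0 reads in all 4 allogeneic isotype libraries, against 1.64, 2.32, 9.36 and 2.39 CPM in syngeneic replicates 1 to 4. The highest syngeneic library was again replicate 3. Against the same 3 counts, Bsnd was at least 96.1-fold lower in allogeneic isotype skin, and at least 55.1-fold lower without syngeneic replicate 3. Rxfp1, the relaxin receptor gene, had 1 read in allogeneic isotype replicate 4 and 0 reads in the other 3 libraries of that group, against 3.90, 3.13, 2.78 and 2.58 CPM in syngeneic replicates 1 to 4. Here the syngeneic libraries lay close together. The pooled Rxfp1 level was 239.6-fold lower in allogeneic isotype skin (95% exact counting interval 42.7 to 9492). These intervals and bounds cover counting error only. Because these values chose the genes they are a description and carry no test. All 3 were among the 12.5% of genes whose groups did not overlap in the lower direction. All 3 genes were among the 8.8% of genes called lower in this comparison, and nothing is read from these counts. Marrow from a different donor strain parts the same groups, as do reads of Y-linked genes. Strain, Y-linked reads and disease cannot be told apart.

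**Figure D1:**
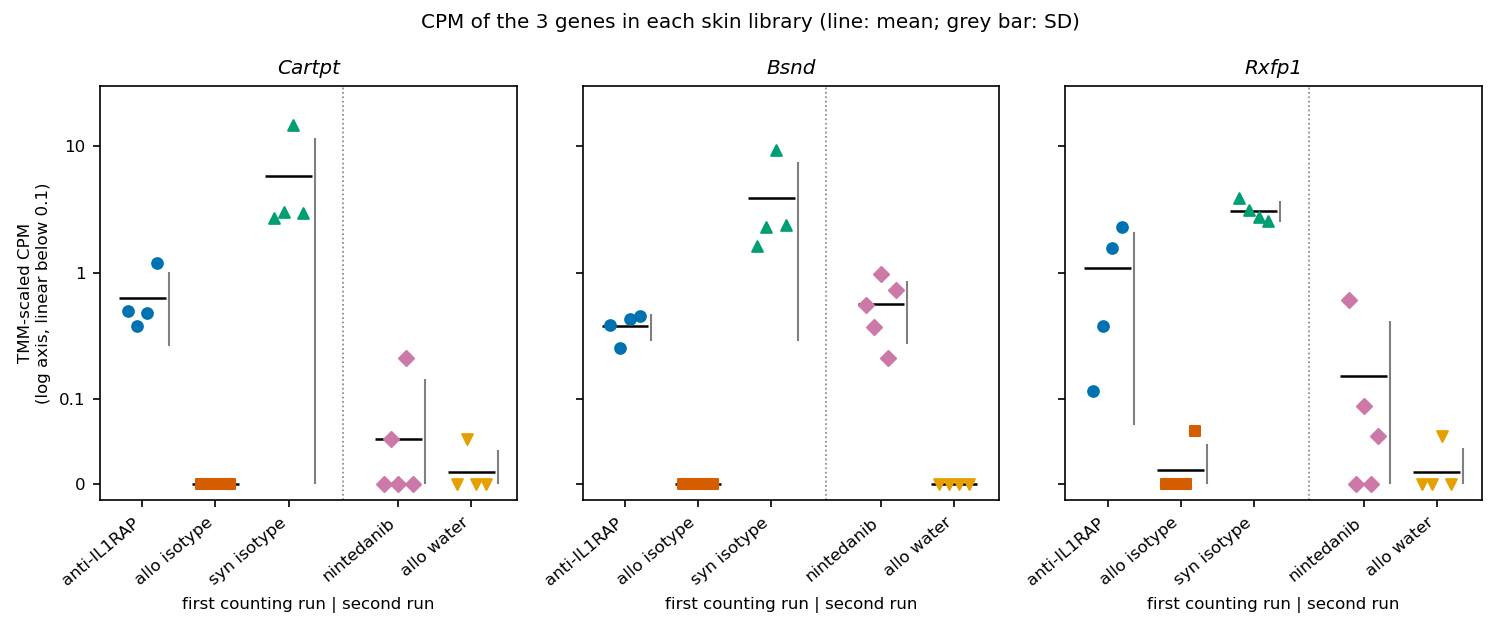
TMM-scaled CPM of Cartpt, Bsnd and Rxfp1 (vertical axis, logarithmic and linear below 0.1) in each library of the anti-IL1RAP, allogeneic isotype and syngeneic isotype groups (left of the dotted line) and the nintedanib and allogeneic water groups (right of it). Points are libraries, black lines group means and grey bars 1 SD (cut at 0); all anti-IL1RAP points lie above the allogeneic isotype points and below the syngeneic points, and only Bsnd has all 5 nintedanib points above the water points.

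With the anti-IL1RAP antibody, each of the 3 genes had reads in all 4 libraries, at levels between allogeneic isotype and syngeneic skin. Cartpt was at 0.502, 0.380, 0.478 and 1.19 CPM in anti-IL1RAP replicates 1 to 4 (13, 12, 10 and 26 reads), against 0 in all 4 allogeneic isotype libraries. It was at least 15.8-fold higher than 3 counts over the isotype group. Bsnd was at 0.386, 0.253, 0.430 and 0.458 CPM in anti-IL1RAP replicates 1 to 4 (10, 8, 9 and 10 reads), the most even of the 3 genes, against 0 in all 4 isotype libraries. It was at least 9.56-fold higher on the same terms. Rxfp1 was uneven, at 0.116, 0.380, 1.58 and 2.29 CPM in anti-IL1RAP replicates 1 to 4 (3, 12, 33 and 50 reads), against the single read of the isotype group. The pooled level was 75.9-fold higher in anti-IL1RAP skin (95% exact counting interval 13.3 to 3029.65). This interval counts reads and not the spread between libraries, and the isotype reads in it chose the gene. No library of either group overlapped for any of the 3 genes, as for 12.2% of all genes tested in the higher direction. By edgeR all 3 were among the 5.58% of genes called higher. The isotype libraries of this comparison are the ones whose low values chose the genes, so no p is given and nothing is read from the count.

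Every anti-IL1RAP library was below every syngeneic library for each of the 3 genes, as for 8.05% of all genes tested. Cartpt averaged 0.637 ± 0.372 CPM in anti-IL1RAP skin, which is 10.9% of the 5.85 ± 5.86 CPM in syngeneic skin (SD, n = 4 each). Without syngeneic replicate 3 the share was 21.8%. Bsnd averaged 0.382 ± 0.0908 CPM in anti-IL1RAP skin, 9.73% of the 3.92 ± 3.64 CPM in syngeneic skin, and 18.1% of the mean without syngeneic replicate 3. Rxfp1 averaged 1.09 ± 1.02 CPM in anti-IL1RAP skin, 35.2% of the 3.10 ± 0.582 CPM in syngeneic skin. Single anti-IL1RAP libraries ran from 3.74% to 73.9% of that Rxfp1 mean, so the spread within the group was wide. Bsnd was 1 of the 7 genes called lower in anti-IL1RAP than in syngeneic skin (0.0342% of genes tested), while Cartpt and Rxfp1 were not called. The syngeneic libraries also took part in choosing the genes, and nothing is read from this count.

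The nintedanib and water libraries did not choose the genes. The filter, scaling and spread of their comparison, however, came from all 21 libraries, among them those that did. Bsnd rose in this comparison. Bsnd was at 0.557, 0.371, 0.970, 0.213 and 0.737 CPM in nintedanib replicates 1 to 5 (10, 7, 21, 4 and 13 reads), against 0 reads in all 4 water libraries. Every nintedanib library was above every water library, as for 4.75% of all genes tested. Measured against 3 counts over the water group (0.0425 CPM), Bsnd was at least 13.6-fold higher with nintedanib (edgeR adjusted p = 0.00591, higher in 5 of 5 libraries). It was 1 of the 3 genes called higher, where 5.56% of all genes were. An exact 2-sided permutation test on log2 CPM gave p = 0.00794, the smallest that 5 against 4 libraries allow. The edgeR call rests on a spread estimated over all 21 libraries. In the 9 nintedanib and water libraries alone Bsnd did not pass the filter, and with no filter its adjusted p was 0.0816. Some descriptions carry a note on 2 sequencing lanes: Bsnd had adjusted p = 0.0722 among libraries with the note (nintedanib replicates 2, 3 and 5, water replicates 1 and 2) and adjusted p = 0.114 among those without it.

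Cartpt and Rxfp1 did not pass in that comparison. Cartpt had 0, 1, 0, 4 and 0 reads in nintedanib replicates 1 to 5, against 0, 1, 0 and 0 reads in water replicates 1 to 4. The groups overlapped, with a pooled ratio of 3.72 (95% exact counting interval 0.416 to 176; edgeR adjusted p = 0.604). Leaving out nintedanib replicate 4 reversed the fitted sign (adjusted p = 1). Rxfp1 had 11, 0, 2, 0 and 1 reads in nintedanib replicates 1 to 5, against 0, 0, 1 and 0 reads in water replicates 1 to 4. Replicate 1 held most of the nintedanib reads, and 2 of the 5 libraries had none. The pooled ratio was 10.4 (95% exact counting interval 1.58 to 440.4), which counts reads and not the spread between libraries. The edgeR adjusted p was 0.227, and the exact 2-sided permutation test gave p = 0.246. The effect of nintedanib was not tested against that of the anti-IL1RAP antibody, since the isotype libraries chose the genes.

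Across libraries, Cartpt and Bsnd followed each other in the first counting run and not in the second. Over its 12 libraries the log2 CPM of Cartpt and Bsnd had Pearson's r = 0.992. After each group's mean was subtracted r was 0.921, and without syngeneic replicate 3, which was highest for both, r was 0.602. Over the 9 nintedanib and water libraries r was -0.01, where most libraries hold few or no Cartpt reads. The 3 nintedanib libraries with the most Bsnd (replicates 1, 3 and 5) had 0 Cartpt reads. Rxfp1 had r = 0.908 with Cartpt and r = 0.886 with Bsnd over the 12 libraries, but r = 0.24 and r = 0.06 after group means were subtracted. Without syngeneic replicate 3 these were 0.592 and 0.339, so Rxfp1 then followed Cartpt about as closely as Bsnd did. These correlations describe libraries that share the group differences which chose the genes.

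**Figure D2:**
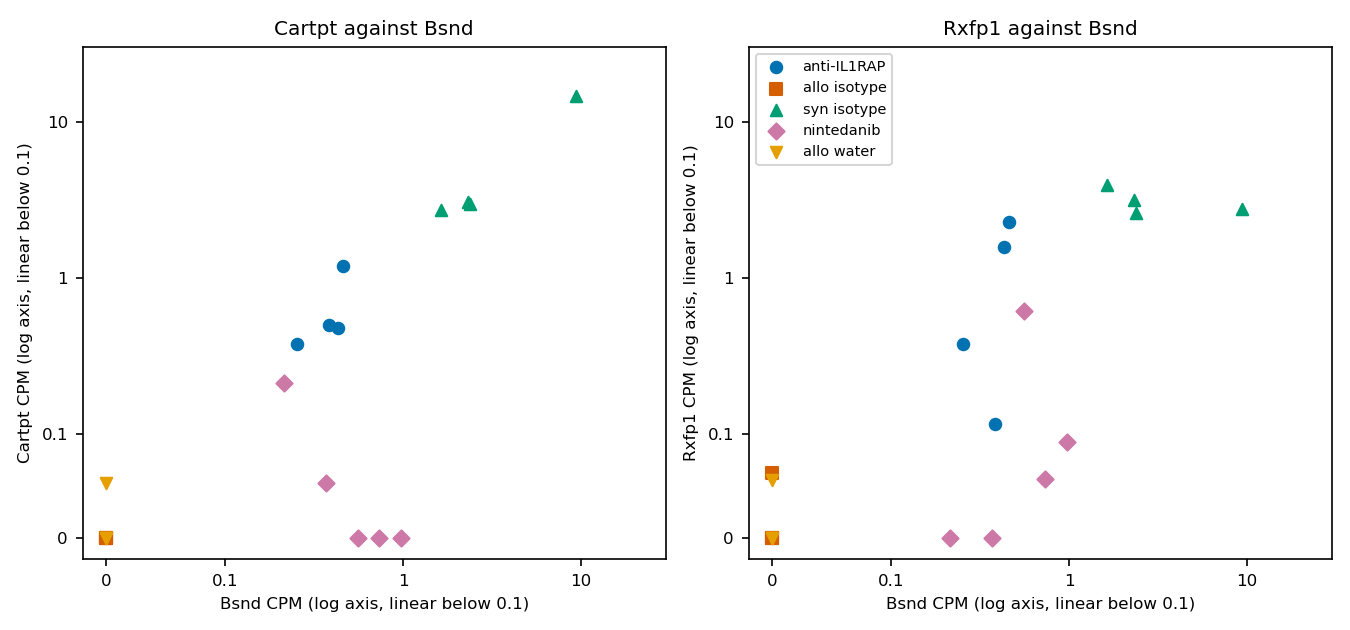
CPM of Cartpt (left) and Rxfp1 (right) against CPM of Bsnd in the 21 libraries, both axes logarithmic and linear below 0.1, one symbol per group. Cartpt and Bsnd rise together from the anti-IL1RAP to the syngeneic libraries, with syngeneic replicate 3 at the top (14.6 and 9.36 CPM), while 3 nintedanib libraries have Bsnd and no Cartpt.

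The genes whose log2 CPM was most like that of each gene over these 12 libraries were ranked among 15009 named genes. For Cartpt they were Bsnd, Palld (0.964), an actin-binding protein gene, Crip3 (0.963), Spon2 (0.960), which encodes a secreted matrix protein, and Izumo4 (0.959). For Bsnd they were Cartpt, Mettl17 (0.965), Crip3 (0.964), Palld (0.960) and Tbc1d8 (0.956). Palld and Crip3 thus stood in both sets. After group means were subtracted, Palld had r = 0.784 with Cartpt and r = 0.746 with Bsnd, and Crip3 had r = 0.356 and r = 0.382. In the 9 libraries of the second run, r with Cartpt was -0.32 for Palld, -0.04 for Crip3, -0.22 for Spon2 and 0.693 for Izumo4. Most of these libraries held few or no Cartpt reads. With Bsnd, r was 0.430 for Mettl17, 0.505 for Crip3, 0.602 for Palld and 0.517 for Tbc1d8. For Rxfp1 the most alike were Irs1 (0.983), the insulin receptor substrate, Coro2b (0.976), Akr1c14 (0.974), a steroid-metabolising reductase, Nrep (0.974) and Nnat (0.972), the imprinted neuronatin gene. After group means were subtracted, these 5 genes had r between 0.822 (Akr1c14) and 0.901 (Nrep) with Rxfp1, and Irs1 had 0.884. Over the second run the 5 had r between -0.02 (Coro2b) and 0.538 (Nrep). Nnat averaged 53.4 CPM in anti-IL1RAP, 0.804 in allogeneic isotype and 153 in syngeneic skin.

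The ligands of the relaxin receptor were scarce in every group. Rln1, the mouse relaxin gene, had 4 reads over the anti-IL1RAP, 0 over the allogeneic isotype and 1 over the syngeneic libraries, and 0 over the nintedanib and 1 over the water libraries. Neither Rln1 nor the receptor genes Rxfp2, Rxfp3 and Rxfp4 passed the filter on low counts. Of the 8 other genes of the relaxin family list, 2 passed the filter, both for insulin-like peptides. Insl6 rose in allogeneic isotype skin, at 3.55 ± 1.01 CPM against 0.863 ± 0.162 CPM in syngeneic skin (log2 fold change 2.04 ± 0.45, edgeR adjusted p = 0.00338, higher in 4 of 4 libraries). With treatment Insl6 was at 2.30 ± 0.307 CPM in anti-IL1RAP skin against 3.55 ± 1.01 CPM in isotype skin, and at 1.39 ± 0.860 CPM in nintedanib skin against 2.19 ± 1.203 CPM in water skin, and neither difference passed. Insl3, whose exons overlap those of Jak3, did not pass in these comparisons, and its reads cannot be separated from Jak3 with certainty.

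Kcnj16, an inwardly rectifying potassium channel of kidney tubules and other epithelia, went the same way as Bsnd. It averaged 4.27 ± 1.21 CPM in nintedanib skin and 0.877 ± 0.788 CPM in water skin (2.26 ± 0.46, edgeR adjusted p = 0.00614, the groups not overlapping). It averaged 4.38 ± 0.673 CPM in anti-IL1RAP skin against 0.980 ± 0.374 CPM in allogeneic isotype skin (2.16 ± 0.46, edgeR adjusted p = 0.00591), and isotype skin was also lower than syngeneic skin, at 8.03 ± 2.85 CPM (-3.04 ± 0.47, edgeR adjusted p = 0.000276). Kcnj16 lost its nintedanib call in the 9 libraries alone (adjusted p = 0.0979) and among libraries with the lane note (adjusted p = 0.124).

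Of the 12 other genes of the chloride channel and salt transport list that passed the filter, 1 rose and 1 fell with nintedanib, 2 rose and 3 fell with anti-IL1RAP, and 3 rose and 2 fell in allogeneic isotype against syngeneic skin. The shares of all genes tested were 5.56% and 3.76% with nintedanib, 5.58% and 5.19% with anti-IL1RAP, and 13.8% and 8.8% in isotype against syngeneic skin. The list's median log2 fold changes, in that order, were -0.14, -0.12 and -0.06. The median over all genes was 0 in each, a value that symbols without reads in a run may set. Clcn7, the lysosomal chloride-proton exchanger, was opposite to Bsnd in direction. It fell with nintedanib to 57.9 ± 1.89 CPM, against 83.3 ± 11.0 CPM with water (-0.53 ± 0.10, edgeR adjusted p = 0.0051). That call was lost in the 9 libraries alone (adjusted p = 0.0729, and 0.121 with no filter) and within either set by lane note (0.07 and 0.0976). It also fell with anti-IL1RAP, at 52.0 ± 7.80 CPM against 76.8 ± 5.39 CPM (-0.56 ± 0.11, edgeR adjusted p = 0.00307). It rose in isotype skin against the 44.5 ± 2.44 CPM of syngeneic skin (0.79 ± 0.11, edgeR adjusted p = 0.000112). Clcn3, an endosomal exchanger, fell with anti-IL1RAP (-0.59 ± 0.15, edgeR adjusted p = 0.0154), a call lost when any of 3 libraries was left out: isotype replicate 4 (adjusted p = 0.0753) and replicates 1 and 4 of the antibody group (0.0542 and 0.0504). Clcn5, another endosomal exchanger, rose in isotype against syngeneic skin (0.63 ± 0.12, edgeR adjusted p = 0.00106). Kcne1 of the same list did not pass the filter and was not tested. It had 810 reads pooled over the nintedanib and 7 over the water libraries. The filter asks for reads in several libraries, so a gene with this many reads that fails it holds them mostly in a few. No group difference is read from these sums.

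Most other neuropeptide and peptide processing genes were below the filter or did not pass. Of 23 such genes besides Cartpt, 10 passed the filter. With nintedanib 0 rose and 1 fell, with anti-IL1RAP 1 rose and 1 fell, and in isotype against syngeneic skin 1 rose and 1 fell. The shares of all genes tested, higher and lower, were 5.56% and 3.76%, 5.58% and 5.19%, and 13.8% and 8.8%. Nothing is read from counts this small. The median log2 fold changes of the 10 genes in the same order were 0.21, 0.15 and -0.18, against 0 over all genes, which symbols without reads in a run may set. Scg3, a granin of secretory granules, was the called gene that went the same way as Cartpt in the first run, at 6.75 ± 3.58 CPM in anti-IL1RAP, 0.471 ± 0.328 CPM in isotype and 6.56 ± 1.17 CPM in syngeneic skin. It rose with anti-IL1RAP (3.82 ± 0.79, edgeR adjusted p = 0.00485) and was lower in isotype than in syngeneic skin (-3.78 ± 0.79, edgeR adjusted p = 0.00236). With nintedanib it was at 1.59 ± 0.896 CPM, against 1.99 ± 2.38 CPM with water (edgeR adjusted p = 0.895). Chga, the granule protein chromogranin A, went the other way. It fell with nintedanib to 2.24 ± 1.88 CPM, against 10.2 ± 4.47 CPM with water (-2.19 ± 0.54, edgeR adjusted p = 0.0175). It fell with anti-IL1RAP to 1.42 ± 0.620 CPM, against 7.84 ± 5.07 CPM in isotype skin (-2.45 ± 0.59, edgeR adjusted p = 0.0114). The nintedanib call was lost in the 9 libraries alone (adjusted p = 0.101), without water replicate 3 (0.0513), without nintedanib replicates 1 and 3 (0.0783) and within either set of libraries by lane note (0.253 and 0.0623). The anti-IL1RAP call was lost without isotype replicate 4 (adjusted p = 0.0561). The convertase Pcsk2 was at 0.206 ± 0.0422 CPM in anti-IL1RAP skin, 0 in isotype skin and 0.373 ± 0.245 CPM in syngeneic skin, and did not pass.

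**Figure D3:**
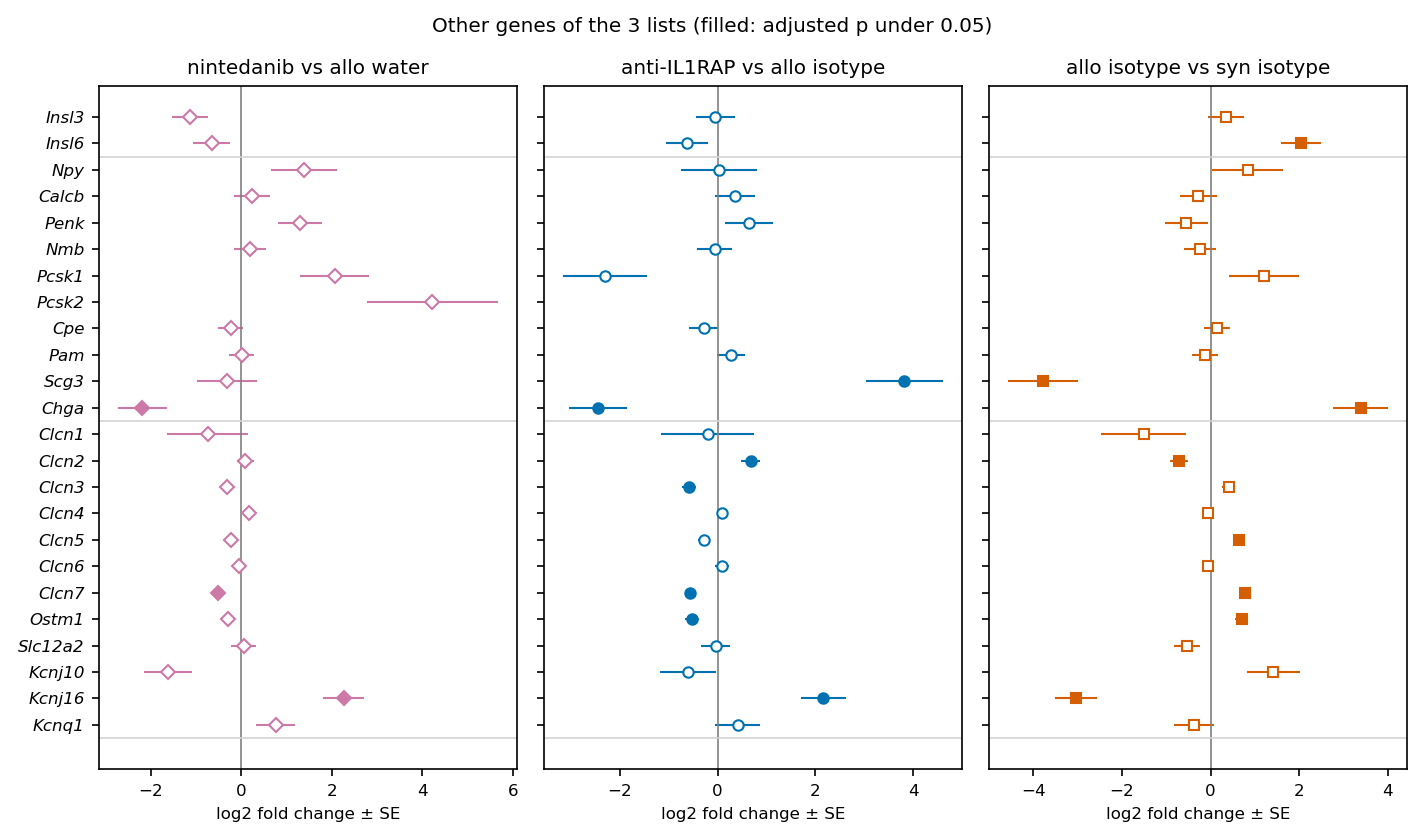
Log2 fold change ± SE (horizontal axis) of the other genes of the relaxin family (top), neuropeptide (middle) and chloride channel (bottom) lists for nintedanib against water, anti-IL1RAP against allogeneic isotype and allogeneic isotype against syngeneic isotype, with filled symbols for adjusted p under 0.05. Kcnj16 lies right of 0 in both treatment panels and left of 0 in the isotype panel, and Chga the reverse; a gene at 0 in a whole group has no point.

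Marker genes of several skin cell types also differed between groups, and not always where the 3 genes did. Sebaceous gland genes (10 genes, among them Scd3, Awat2 and Mc5r) summed to 541 to 1001 CPM in anti-IL1RAP, 112 to 264 CPM in allogeneic isotype and 405 to 801 CPM in syngeneic libraries. They summed to 239 to 828 CPM in nintedanib and 88.9 to 156 CPM in water libraries. Of these 10 genes, by edgeR, 7 rose with nintedanib, 6 rose with anti-IL1RAP and 5 fell in isotype against syngeneic skin, and none was at 0 in a whole group. In the fit of the 9 libraries alone 4 rose with nintedanib. Of all genes tested in the main fit, 5.56% rose with nintedanib and 5.58% with anti-IL1RAP. In isotype against syngeneic skin 13.8% rose and 8.8% fell. These shares stand beside the counts of the marker lists below as well. Syngeneic replicate 3, the highest for Cartpt and Bsnd, also had the highest sebaceous sum of its group. The order was not the same in the treated groups. Anti-IL1RAP replicate 4, highest for Cartpt and Bsnd, had a sum of 574 CPM, against 1001 CPM in replicate 1, and nintedanib replicate 3, highest for Bsnd, had 360.0 CPM, against 828 CPM in replicate 5. Among the anti-IL1RAP libraries the sebaceous sum was above that of 3 of the 4 syngeneic libraries in all 4, while Cartpt and Bsnd were below all syngeneic libraries. The part of sebaceous gland content in the levels of Bsnd and Cartpt was not tested.

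Dermal fibroblast genes (10 genes, among them Pdgfra, Dcn and Dpt) summed to 1549 to 3727 CPM in anti-IL1RAP, 368 to 1148 CPM in isotype and 2616 to 3180 CPM in syngeneic libraries. They summed to 980.1 to 1712 CPM in nintedanib and 532 to 1068 CPM in water libraries. Of the 10, 7 rose with anti-IL1RAP, 7 fell in isotype against syngeneic skin and 1 rose with nintedanib, and none was at 0 in a whole group. The single nintedanib call was lost in the 9 libraries alone, with no filter, within either set by lane note and without any one of water replicates 2, 3 and 4 or nintedanib replicate 2 (0 of 10 in each), and DESeq2 called 3. In anti-IL1RAP replicates 1 to 4 the sum was 1549, 2200.1, 3382 and 3727 CPM, the same order as that of Rxfp1 in these libraries. The syngeneic and nintedanib groups did not show that order. Syngeneic replicate 1 and nintedanib replicate 1 had the most Rxfp1 and the lowest fibroblast sum of their groups (2616 and 980.1 CPM). In the water group the 1 read of Rxfp1 was in replicate 3, which had the highest sum (1068 CPM). Schwann cell genes (10) summed to 883 to 1297 CPM in anti-IL1RAP, 324 to 432 CPM in isotype and 672 to 1627 CPM in syngeneic libraries, and to 166 to 511 CPM in nintedanib and 349 to 557 CPM in water libraries. Of these 10, 7 rose with anti-IL1RAP, 7 fell in isotype against syngeneic skin and 0 rose or fell with nintedanib. The part of either cell type in the levels of the 3 genes was not tested.

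**Figure D4:**
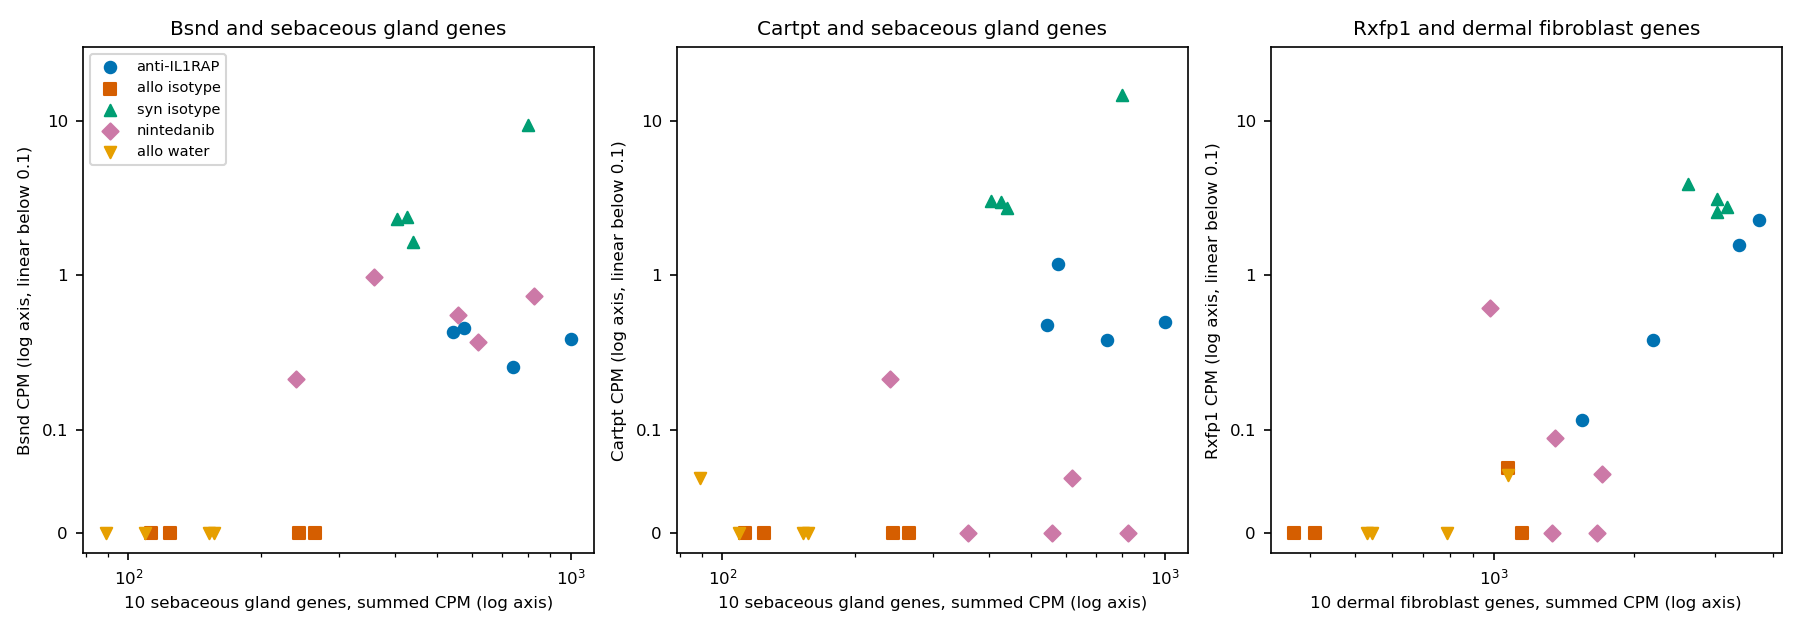
CPM of Bsnd and Cartpt against the summed CPM of 10 sebaceous gland genes, and of Rxfp1 against that of 10 dermal fibroblast genes, in the 21 libraries (logarithmic axes, the vertical ones linear below 0.1). The anti-IL1RAP libraries lie at sebaceous sums of 541 to 1001 CPM with less Bsnd and Cartpt than the syngeneic libraries at 405 to 801 CPM, and their Rxfp1 rises with the fibroblast sum from 1549 to 3727 CPM, while in the syngeneic and nintedanib groups the library with the most Rxfp1 has the lowest sum (2616 and 980.1 CPM).

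Ionocytes, chloride-handling cells, are known to express barttin in airway and kidney epithelia. Genes of ionocytes and glandular epithelium (14) summed to 30.8 to 133 CPM in anti-IL1RAP, 13.3 to 32.8 CPM in isotype and 23.8 to 182 CPM in syngeneic libraries, and to 7.58 to 121 CPM in nintedanib and 14.6 to 131 CPM in water libraries, so the sums overlapped in each comparison. Of the 9 that passed the filter, 0 rose with nintedanib, 2 rose with anti-IL1RAP and 2 fell in isotype against syngeneic skin (Cftr and Krt19 in both). Cftr averaged 0.148 ± 0.0959 CPM in nintedanib skin and 0 in water skin, and was not called (edgeR adjusted p = 0.0641). Foxi1, below the filter and not tested, went the other way there in pooled reads, with 0 over the nintedanib and 41 over the water libraries. Its reads are not split by library here, so this direction may rest on few libraries. Foxi1 had 13 reads over the anti-IL1RAP, 0 over the isotype and 32 over the syngeneic libraries. Of the 14, 1 was at 0 in all anti-IL1RAP, 3 in all isotype and 1 in all syngeneic libraries, and 2 each in all nintedanib and all water libraries. Among peripheral neuron genes (12), the sums overlapped between groups, at 11.3 to 14.7 CPM in anti-IL1RAP, 8.32 to 16.0 CPM in isotype and 10.7 to 13.7 CPM in syngeneic libraries, and at 9.81 to 55.3 CPM in nintedanib and 12.01 to 18.8 CPM in water libraries. These sums hold calls of opposite direction. Of the 5 genes that passed the filter, 0 rose or fell with nintedanib, 1 rose with anti-IL1RAP (Stmn2), and 1 rose (Tubb3) and 2 fell (Stmn2 and Syt1) in isotype against syngeneic skin. Merkel cell genes (8) summed to 6.36 to 8.38 CPM in anti-IL1RAP, 4.36 to 6.60 CPM in isotype and 7.68 to 13.4 CPM in syngeneic libraries, and to 3.61 to 9.91 CPM in nintedanib and 5.92 to 9.15 CPM in water libraries. None of the 4 that passed the filter was called in these comparisons. Skeletal muscle genes (10) summed to 3785 to 22388 CPM in anti-IL1RAP, 10.5 to 47965 CPM in isotype and 32140.2 to 47815 CPM in syngeneic libraries, so that anti-IL1RAP lay below syngeneic skin with no overlap, as the 3 genes did. They summed to 3872 to 23922 CPM in nintedanib and 5435 to 43164 CPM in water libraries, and 1 of the 10 was called, lower in isotype than in syngeneic skin. Adipocyte genes (10) summed to 4478 to 10528 CPM in anti-IL1RAP, 1754 to 5839 CPM in isotype and 4779 to 16328 CPM in syngeneic libraries, and to 1793 to 16737 CPM in nintedanib and 944 to 3671 CPM in water libraries. Of these 10, 0 rose with nintedanib, 1 rose with anti-IL1RAP and 2 fell in isotype against syngeneic skin. The part of these tissues in the levels of the 3 genes was not tested. Growing hair follicle genes (14) summed to 58584 and 22186 CPM in nintedanib replicates 1 and 3 and to at most 75.1 CPM in the other 3 nintedanib libraries, against 66.8 to 427 CPM in water libraries. Dermal papilla genes (11) summed to 112 to 248 CPM in nintedanib libraries, highest in replicate 3, and to 61.9 to 112 CPM in water libraries, and 4 of the 11 rose with nintedanib. They summed to 98.9 to 116 CPM in anti-IL1RAP, 51.3 to 128 CPM in isotype and 84.5 to 126 CPM in syngeneic libraries. Nintedanib replicate 1 had the most Rxfp1 and replicate 3 the most Bsnd of that group. Without both libraries, Bsnd kept its call (edgeR adjusted p = 0.0249), and the adjusted p of Rxfp1 was 1.

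Y-linked genes (4) summed to 2.73 to 6.61 CPM in syngeneic libraries. They were at 0 in all allogeneic isotype and water libraries, at 15.2 CPM in anti-IL1RAP replicate 2 and at 11.7 and 27.9 CPM in nintedanib replicates 2 and 4, with 0 in the other treated libraries. Xist, which the inactive X chromosome of female cells expresses, was between 161 and 463 CPM in every library. The 5 Cartpt reads of the nintedanib group lay in replicates 2 and 4. Anti-IL1RAP replicate 2 had the lowest Cartpt and Bsnd of its group. Y-linked reads part syngeneic from allogeneic isotype libraries without overlap, so in that comparison they cannot be told apart from strain and disease. The part of donor or recipient sex in the 3 genes was not tested.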

How the data were processed

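RNA was sequenced from skin pieces of 21 samples. The deposited values are whole-number read counts per gene symbol, which the authors made with FastQC, Trimmomatic, STAR and featureCounts on GRCm39, per the submitters' processing notes. Their versions and settings were not given in the sources used here. As for strand, the library kit is named without a strand-marking step, so overlapping genes cannot be separated with certainty. The counts come in 2 sets with different gene names (21830 symbols with counts in both, 12094 in the first alone, 6185 in the second alone).

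Tests used edgeR 4.0.16 under R 4.3.3. The filter was filterByExpr (minimum count 10) and the scaling TMM. A single quasi-likelihood fit held all 21 libraries, each group having its own mean. A gene is called where its p, adjusted by Benjamini-Hochberg over all genes tested, is under 0.05. Log2 fold changes carry an SE, and CPM values are given as mean ± SD. A group at 0 was set at 3 counts over the group. Ratios with 1 to 3 counts carry exact 95% counting intervals. Log2 CPM for correlations and permutation tests used a prior count of 2. Of each pathway list up to 4 called genes with the lowest p were named, and 5 like genes per member by Pearson's r. The members and lists were chosen with earlier results of these data known. Alternatives were RLE factors, no filter, subsets of libraries, a replicate block, DESeq2 1.42.0 and each library left out. The fit was tested on simulated counts. No 2 libraries held identical counts. Figures used matplotlib 3.10.9. Some genes of the lists are not reported here.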

Additional observations from a re-analysis of the deposited data

Results flagged for a closer look

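Of 12 groups of libraries with reads of a gene, 8 had 1 library farther from the others than Dixon's test allows, a flag that chance raises in about 1 of 20 groups. That rate does not hold for 3 of the 8, where 1 library has a single read and the others have none, since any read is then flagged. It need not hold for nintedanib either, where the libraries not flagged have 0 to 2 reads of Cartpt or Rxfp1. The groups are also not independent, since syngeneic replicate 3 was flagged for Cartpt and for Bsnd. For Cartpt the flagged libraries were syngeneic replicate 3 (14.6 CPM), anti-IL1RAP replicate 4 (1.19 CPM), nintedanib replicate 4 (0.213 CPM) and water replicate 2 (0.053 CPM, a single read). For Bsnd it was syngeneic replicate 3 (9.36 CPM), the library that was also highest for Cartpt. For Rxfp1 these were nintedanib replicate 1 (0.612 CPM), allogeneic isotype replicate 4 (0.0625 CPM, a single read) and water replicate 3 (0.0561 CPM, a single read).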

How the results depend on the processing

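The rise of Bsnd with nintedanib kept its direction in every setting that gave a value. Its adjusted p was 0.00591, 0.00564 with RLE factors, 0.00625 with no filter, 6.25e-05 with DESeq2 and 0.00416 to 0.0209 with 1 library left out. It missed the threshold among libraries with the lane note (0.0722), among those without it (0.114), and in the 9 libraries alone with no filter (0.0816). The settings by lane note compared fewer libraries. The setting of the 9 libraries kept all nintedanib and water libraries and took the spread from them alone. In the 9 libraries alone with the filter none of the 3 genes was tested. Cartpt stayed above the threshold throughout (adjusted p 0.426 to 1 with 1 library left out), and its sign reversed without nintedanib replicate 4 (1), among libraries with the lane note (1) and without nintedanib replicates 2 and 4 (0.635). Rxfp1 ranged from 0.152 to 0.797 with 1 library left out. The sign of Scg3 with nintedanib reversed without water replicate 3 (0.426) and with the lane note (0.274), and its adjusted p reached 1 with other single libraries left out.

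The share of the syngeneic mean in anti-IL1RAP skin ran from 7.75% to 21.8% for Cartpt, 8.14% to 18.1% for Bsnd and 22.3% to 45.7% for Rxfp1 with 1 library left out, the upper value of Cartpt and Bsnd being that without syngeneic replicate 3.

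Genes called with nintedanib numbered 1906, against 1190 with no filter, 3058 with DESeq2, 94 in the 2 groups alone, 94 in their counting run alone (the same libraries), 49 there with no filter, 242 with the lane note, 333 without it, 1225 without nintedanib replicates 1 and 3, 3197 without replicates 2 and 4, and 782 to 2794 with 1 library left out. For anti-IL1RAP against isotype they numbered 2204, against 3664 in the first counting run alone and 1284 to 2168 with 1 library left out. For anti-IL1RAP against syngeneic they numbered 166, against 672 with DESeq2, 2131 in the 2 groups alone, 505 in the first run alone and 31 to 152 with 1 library left out. For isotype against syngeneic all settings stayed within 1.5 times of 4621.

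The titles give groups the same replicate numbers, and not all same-numbered libraries deviated together (r from -0.19 to 0.04 for nintedanib and water, and -0.03, 0.05, 0.26 and 0.35 for the pairs of anti-IL1RAP and isotype). The block used the numbers of the titles, and the descriptions number the anti-IL1RAP libraries otherwise. With the replicate block the adjusted p of Bsnd with nintedanib was 0.00567, and the genes called numbered 2130 with nintedanib, 2012 for anti-IL1RAP against isotype, 98 for anti-IL1RAP against syngeneic and 4498 for isotype against syngeneic. Depth limits the low genes most, since a single Cartpt read was 0.053 CPM in water replicate 2. The cause of these changes was not tested.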
